A study of Mus musculus with 12 samples.

Results

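To ask how regulators of epithelial identity differ between metastasizing and non-metastasizing cells of small-cell lung cancer (SCLC), 10 genes were followed across 12 RNA-seq libraries: the splicing factor genes Esrp1 and Esrp2, the transcription factor genes Grhl1, Grhl2, Grhl3, Ovol1, Ovol2, Elf3 and Ehf, and the small GTPase gene Rab25. They were chosen by symbol, as 10 of the 24458 gene rows (23947 symbols) of the deposited expression table, and each symbol had a row. The cells came from tumors of the RP mouse model, in which conditional alleles of Rb1 and Trp53 (Rb1 L/L and Trp53 L/L) are deleted by adenoviral Cre under the CMV promoter, given into the airway of young adults, on a mixed C57Bl/6, Balb-c and S129 background with lung as the tissue. SMC, the metastasizing cells, were sorted as NCAM hi and CD44 lo or negative and grow as floating oncospheres, and Non-SMC were sorted as NCAM lo and CD44 hi and grow attached to the dish. The study reports from genotyping that both tumor suppressors were deleted in the SMC and the Non-SMC subpopulation. Every line was untreated and was kept in RPMI1640 with serum. The age at which tumors were taken was not given.

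There were 4 lines with 3 libraries each, labelled as pair 1 (SMC#1 and Non-SMC#1) and pair 2 (SMC#2 and Non-SMC#2). With 2 lines in a group, SMC against Non-SMC compares these particular lines. No label says whether the libraries of a line were grown apart, so the p-values reflect variation among libraries that may be technical. Levels are in FPKM, the fragments of a gene scaled to transcript length and to the mapped fragments of the library, so that they can be compared between genes. Differences are on the log2(FPKM + 1) scale, tested with limma, and a gene was called where the p adjusted by Benjamini-Hochberg over 13122 rows fell under 0.05.

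These genes work as layers of epithelial identity. ESRP1 and ESRP2 bind RNA and keep the epithelial choice of exons in transcripts such as those of Fgfr2 and Cd44, grainyhead-like (GRHL) factors hold open the enhancers of junction genes such as Cdh1, and OVOL zinc finger factors restrain Zeb1 and other drivers of epithelial-mesenchymal transition (EMT). ELF3 and EHF are ETS factors of epithelial tissues, and RAB25, a relative of RAB11, returns membrane cargo to the epithelial surface. ZEB and SNAI repressors work against this set by binding CACCTG, a form of the E-box, at promoters of epithelial genes.

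RefSeq promoter windows (GRCm38.p6, 250 bases before to 50 after a start) were held for 5 of the 10 genes, Elf3, Rab25, Grhl3, Ovol2 and Grhl1, the last with 2 windows. Esrp1, Esrp2, Grhl2, Ovol1 and Ehf had no entry. CACCTG was searched on both strands (CAGGTG on the other), beside the grainyhead motif AACCGGTT and the Ovo-like motif CCGTTA. The 3 windows with CACCTG are printed from 160 bases before the start to 20 after it, because they hold the letters that ZEB and SNAI factors read. All 3 lie on the minus strand and run 5′ to 3′, with the E-box in capitals, and span chr1:135258453-135258632 for Elf3, chr3:88548260-88548439 for Rab25 and chr4:135573613-135573792 for Grhl3.
Elf3: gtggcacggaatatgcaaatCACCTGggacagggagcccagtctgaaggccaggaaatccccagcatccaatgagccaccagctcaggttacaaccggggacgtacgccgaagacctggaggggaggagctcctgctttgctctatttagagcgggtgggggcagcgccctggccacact
Rab25: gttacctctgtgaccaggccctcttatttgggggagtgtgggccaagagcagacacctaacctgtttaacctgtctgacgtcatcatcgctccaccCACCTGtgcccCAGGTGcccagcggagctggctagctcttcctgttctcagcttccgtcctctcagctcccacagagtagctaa
Grhl3: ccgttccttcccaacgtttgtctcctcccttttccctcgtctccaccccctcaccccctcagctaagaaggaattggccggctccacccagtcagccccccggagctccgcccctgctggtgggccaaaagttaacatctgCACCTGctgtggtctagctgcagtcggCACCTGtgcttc
The first base of the E-box was at -140 in Elf3, at -64 and -53 in Rab25 and at -19 and 9 in Grhl3, counted from the start. With 3 of 6 windows holding it, the share among all 32851 promoters of that length was 20.2%. AACCGGTT was in none of the 6 windows (0.146% of all promoters) and neither was CCGTTA (2.76%). A match is a description of the letters, not a bound site.

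FPKM summed to 289158 to 427958 in a library, with 10794 to 11536 rows at 1 FPKM or more. Read totals cannot be read from FPKM, and ratios of low values put the relative depth of the libraries at 0.928 to 1.43. Summed neuroendocrine markers (6 genes) lay at 1105 to 1517 FPKM in SMC against 42.03 to 53.3 FPKM in Non-SMC. Ncam1, which encodes the NCAM protein by which SMC were sorted as high, went against the sort, with 32.1 to 37.6 FPKM in SMC and 41.0 to 52.6 FPKM in Non-SMC (-0.44, limma adjusted p = 4.43e-06), whereas Cd44 was low in SMC as the sort states. The 5 fibroblast markers summed to at most 0.416 FPKM in SMC against 486 to 2165 FPKM in Non-SMC, endothelial markers (4 genes) to at most 0.367 FPKM in any library and leukocyte markers (5 genes) to at most 4.55 FPKM, nearly all of it Cd68, with Cd3e listed at 0 throughout. Alveolar and airway markers (6 genes) summed to 44.1 to 53.3 FPKM in SMC#1, mostly Sftpc, and to 7.16 to 9.16 FPKM in SMC#2, against 0.491 to 3.78 FPKM in Non-SMC. The part of these marker differences in the results that follow was not tested.

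All 10 genes were higher in SMC than in Non-SMC, by 1.71 to 4.40 on the log2 scale, and for each of them no Non-SMC library reached the lowest SMC library. limma called 10 of 10 as higher, where 44.7% of all rows tested were called higher, and the separation of the libraries held for 28.0% of rows. At 2-fold or more the count was again 10 of 10, against 18.0% of rows. Their median difference was 2.93, against 0.02 over all rows tested. In bulk RNA, fewer cells that express a gene and less RNA per cell cannot be told apart. All 10 passed the filter of 1 FPKM in 3 libraries, but Grhl1, Grhl3, Ovol1 and Ovol2 reached 1 FPKM only in SMC libraries and so had to differ. Outside SMC, Ehf reached 1 FPKM only in replicate 1 of Non-SMC#2 (1.01 FPKM), so it too passed the filter through SMC. No support is drawn from these counts. With the line as the unit of replication, which leaves 1 residual degree of freedom, 7 of 10 kept the call (8.64% of rows were called higher). limma gave adjusted p = 0.213 for Grhl3, 0.0941 for Ovol2 and 0.0573 for Ehf. These calls rest on a variance that limma moderates with that of the other rows, not on the 4 lines alone.

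**Figure D1:**
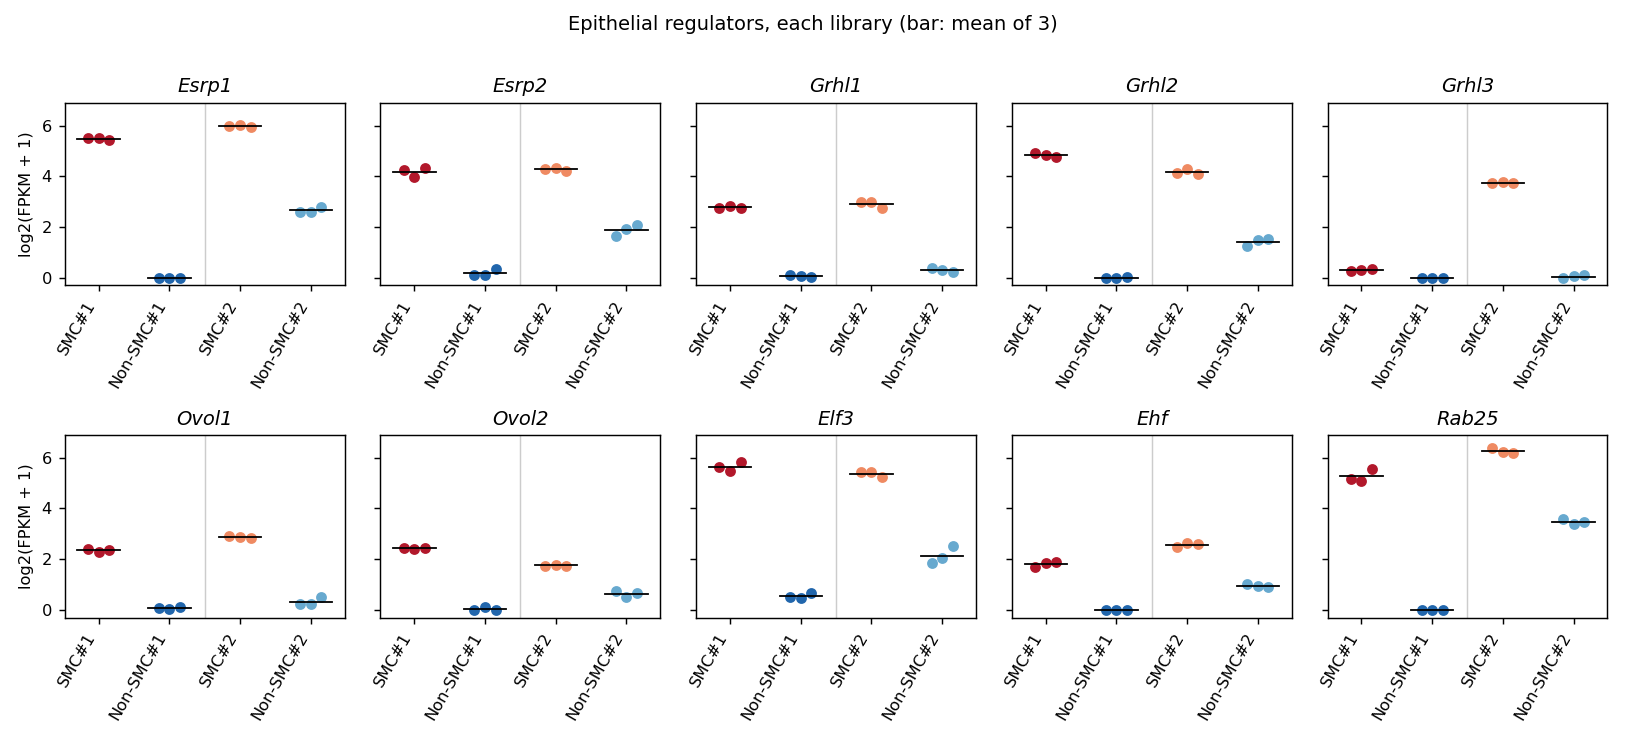
Level of each of the 10 genes as log2(FPKM + 1), with 1 point per library, a bar for the mean of the 3 libraries of a line and a grey line between pair 1 and pair 2. For 9 genes the order was Non-SMC#1, then Non-SMC#2, then the SMC lines, whereas Grhl3 was high in SMC#2 only.

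The splicing factor genes were strongly expressed in both SMC lines. Esrp1, on mm9 chromosome 4 at 11259080 to 11313930, had 44.9, 44.3 and 42.8 FPKM in SMC#1, against a listing of 0 in all 3 Non-SMC#1 libraries. In pair 2 it had 62.9, 63.8 and 60.3 FPKM in SMC#2, against 4.99, 5.12 and 5.99 FPKM in Non-SMC#2. The 4 lines did not overlap, and Non-SMC#2 kept a low but measurable level. The log2 difference between SMC and Non-SMC was 4.40 (SE 0.05, limma adjusted p = 5.08e-17), the largest of the 10, and 99.2% of rows had a smaller one.

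Esrp2, the paralog with the same exon targets, lies on mm9 chromosome 8 at 108655083 to 108660874. It had 18.3, 14.8 and 18.9 FPKM in SMC#1, against 0.0727, 0.0779 and 0.264 FPKM in Non-SMC#1. In pair 2 the levels were 18.4, 19.2 and 17.6 FPKM in SMC#2, against 2.10, 2.77 and 3.22 FPKM in Non-SMC#2. The SMC lines overlapped and the Non-SMC lines did not. The difference between groups was 3.20 (SE 0.08, limma adjusted p = 3.75e-13). Esrp1 was the more abundant paralog per length in the 3 lines that expressed the family, at 71.8% ± 2.86 of the summed Esrp FPKM in SMC#1, 77.2% ± 0.335 in SMC#2 and 66.7% ± 3.15 in Non-SMC#2 (SD, n = 3).

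Among the grainyhead-like genes, Grhl2, a regulator of lung epithelial cells on mm9 chromosome 15 at 37162791 to 37293323, was the most abundant per length in both SMC lines. It had 29.0, 27.6 and 26.1 FPKM in SMC#1, against 0, 0 and 0.0133 FPKM in Non-SMC#1. Pair 2 gave 16.4, 18.4 and 16.3 FPKM in SMC#2, against 1.38, 1.78 and 1.91 FPKM in Non-SMC#2. No line overlapped another, and the SMC#1 libraries stood highest. SMC exceeded Non-SMC by 3.79 on the log2 scale (SE 0.06, limma adjusted p = 1.46e-15).

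Grhl1, known for desmosomal gene control in skin, lies on mm9 chromosome 12 at 25257152 to 25302256. It had 5.79, 6.10 and 5.77 FPKM in SMC#1, against 0.0757, 0.0439 and 0.0197 FPKM in Non-SMC#1. The pair 2 levels were 7.03, 7.02 and 5.68 FPKM in SMC#2, against 0.312, 0.227 and 0.163 FPKM in Non-SMC#2. SMC lines overlapped, and every Non-SMC library was under 1 FPKM. Between the groups the difference was 2.67 (SE 0.05, limma adjusted p = 2.65e-14), with 2.72 in pair 1 and 2.62 in pair 2. These sizes rest on the pseudocount, since Non-SMC#1 held 0.788% of the SMC#1 mean in FPKM and Non-SMC#2 3.56% of the SMC#2 mean, and a pseudocount of 0.01 gave 6.84 in pair 1 and 4.79 in pair 2.

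Grhl3, which acts in skin barrier formation and neural tube closure, broke the pattern. On mm9 it lies on chromosome 4 at 135097803 to 135129535. It had 12.5, 12.6 and 12.3 FPKM in SMC#2, against 0, 0.0380 and 0.0700 FPKM in Non-SMC#2. In pair 1 it had 0.221, 0.222 and 0.273 FPKM in SMC#1, against a listing of 0 in all 3 Non-SMC#1 libraries. The SMC#2 libraries thus stood alone, and SMC#1 reached 1.91% of the SMC#2 mean. limma called a difference of 3.70 in pair 2 (SE 0.05, adjusted p = 8.81e-16) and of 0.31 in pair 1 (SE 0.05, adjusted p = 5.02e-05), where all levels were under 1 FPKM.

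The makeup of the Grhl family therefore differed between the SMC lines although its summed level did not stand far apart, at 33.7 FPKM in SMC#1 and 36.1 FPKM in SMC#2. Grhl2 made up 81.8% ± 0.901 of the sum in SMC#1 and 47.2% ± 1.43 in SMC#2, and Grhl3 made up 0.712% ± 0.120 in SMC#1 and 34.6% ± 1.38 in SMC#2 (SD, n = 3). Grhl1 held 17.5% ± 0.827 in SMC#1 and 18.2% ± 1.51 in SMC#2.

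**Figure D2:**
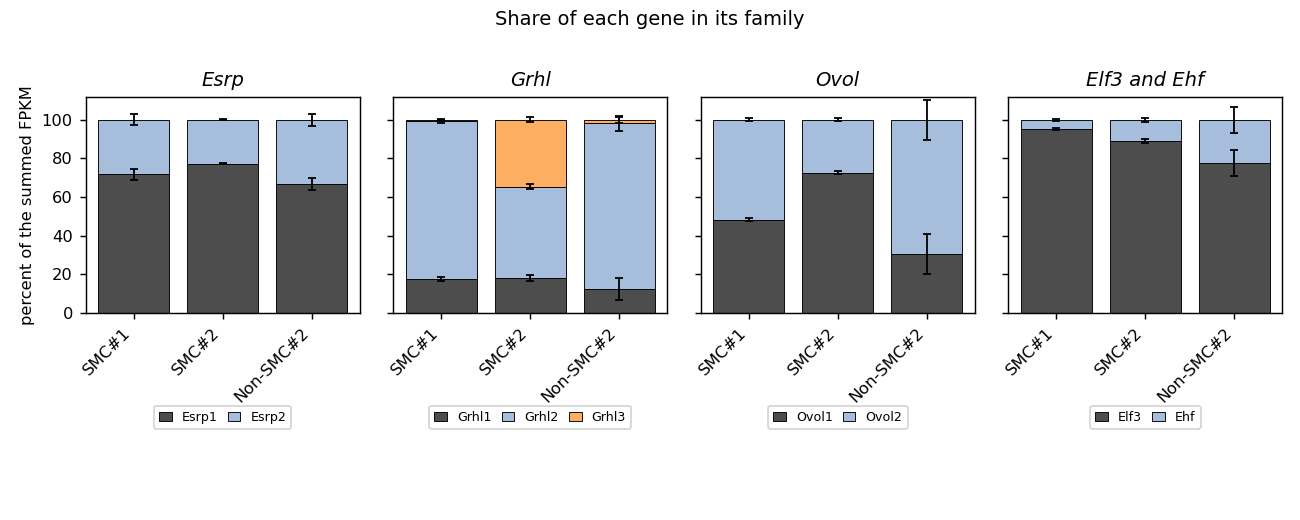
Share of each gene in the summed FPKM of its family (percent), as means of 3 libraries with SD bars drawn at the top of each gene's segment, for SMC#1, SMC#2 and Non-SMC#2. Non-SMC#1 is left out because each of its family sums was under 1 FPKM, and the Ovol sum of Non-SMC#2, at 0.821 FPKM, was also low. Grhl3 took 34.6% of the Grhl sum in SMC#2 and at most 3.26% in any library of the other lines shown.

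The OVOL genes were both low in absolute terms and their balance also differed between the SMC lines. Ovol1, on mm9 chromosome 19 at 5549137 to 5560575, had 4.26, 3.93 and 4.12 FPKM in SMC#1, against 0.0530, 0.0355 and 0.0962 FPKM in Non-SMC#1. In pair 2 there were 6.47, 6.29 and 6.10 FPKM in SMC#2, against 0.171, 0.181 and 0.414 FPKM in Non-SMC#2. No 2 lines overlapped, with all Non-SMC libraries under 1 FPKM. The difference between groups was 2.40 (SE 0.05, limma adjusted p = 4.29e-14).

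Ovol2, the family member required in mouse embryos for neural and vascular development, lies on mm9 chromosome 2 at 144130912 to 144157816. It had 4.42, 4.35 and 4.45 FPKM in SMC#1, against 0, 0.0700 and 0 FPKM in Non-SMC#1. In pair 2 it had 2.32, 2.44 and 2.34 FPKM in SMC#2, against 0.692, 0.404 and 0.601 FPKM in Non-SMC#2. Here SMC#1 was the higher SMC line, the reverse of Ovol1. SMC exceeded Non-SMC by 1.76 on the log2 scale (SE 0.05, limma adjusted p = 5.20e-13). Ovol1 made up 48.2% ± 0.8005 of the summed Ovol FPKM in SMC#1 and 72.6% ± 0.856 in SMC#2 (SD, n = 3), where the sums were 8.51 FPKM and 8.65 FPKM.

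Of the ETS factor genes, Elf3 was abundant and Ehf low. Elf3, on mm9 chromosome 1 at 137150151 to 137155049, had 48.5, 43.4 and 55.9 FPKM in SMC#1, against 0.437, 0.369 and 0.580 FPKM in Non-SMC#1. Pair 2 gave 42.0, 42.8 and 37.1 FPKM in SMC#2, against 2.56, 3.08 and 4.70 FPKM in Non-SMC#2. All libraries of the SMC lines lay within 37.1 to 55.9 FPKM but did not overlap between lines. Between the groups the difference was 4.18 (SE 0.10, limma adjusted p = 2.33e-13).

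Ehf, a close relative that is found mostly in glandular and airway epithelium, lies on mm9 chromosome 2 at 103103590 to 103143353. It had 2.27, 2.56 and 2.71 FPKM in SMC#1, against a listing of 0 in all 3 Non-SMC#1 libraries. The pair 2 levels were 4.53, 5.18 and 5.05 FPKM in SMC#2, against 1.01, 0.940 and 0.849 FPKM in Non-SMC#2. The 4 lines stood apart from each other. The difference between groups was 1.71 (SE 0.05, limma adjusted p = 4.72e-13), close to that of Ovol2 (1.76).

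Rab25, the trafficking gene of the set, lies on mm9 chromosome 3 at 88345951 to 88352201. It had 35.0, 33.4 and 46.1 FPKM in SMC#1, against a listing of 0 in all 3 Non-SMC#1 libraries. In pair 2 there were 82.6, 74.2 and 72.6 FPKM in SMC#2, against 11.1, 9.37 and 9.91 FPKM in Non-SMC#2. Rab25 was the most abundant of the 10 per length in SMC#2 and in Non-SMC#2. SMC exceeded Non-SMC by 4.04 on the log2 scale (SE 0.08, limma adjusted p = 1.20e-14).

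Summed over the 10 genes, SMC#1 libraries held 181 to 207 FPKM and SMC#2 libraries 235 to 255 FPKM, against 0.596 to 0.973 FPKM in Non-SMC#1 and 23.9 to 27.8 FPKM in Non-SMC#2. In pair 1, limma called 10 of 10 as higher in SMC#1 than in Non-SMC#1 (43.9% of rows were called higher), and in pair 2 it called 10 of 10 as higher in SMC#2 than in Non-SMC#2 (39.2% of rows). Of all rows, 32.0% were called higher in both pairs. The size differed between the pairs. The test of pair 1 minus pair 2 called 6 genes as larger in pair 1, against 38.2% of rows, and 2 as larger in pair 2, against 22.5% of rows.

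The 6 genes with the larger difference in pair 1 were Rab25 (5.28 in pair 1 and 2.80 in pair 2), Esrp1 (5.49 and 3.32), Grhl2 (4.83 and 2.75), Elf3 (5.10 and 3.25), Esrp2 (4.004 and 2.40) and Ovol2 (2.40 and 1.11). Grhl3 went the other way, with a difference of pairs of -3.39 (SE 0.07, limma adjusted p = 4.35e-13). Ovol1 was called at -0.28 (SE 0.10, limma adjusted p = 0.0331), but the call was lost when replicate 2 or 3 of SMC#1, 1 or 3 of Non-SMC#1, 1 or 2 of SMC#2 or 1 or 2 of Non-SMC#2 was left out (limma adjusted p = 0.0518 to 0.0802), and the sign turned with smaller pseudocounts. With 0.01 Ovol1 was called as larger in pair 1 (1.25, limma adjusted p = 0.0436). Grhl1 at 0.10 (95% confidence interval -0.13 to 0.34) and Ehf at 0.20 (-0.0010 to 0.40) did not pass the test, although Ehf did without replicate 1 of SMC#1 (0.25, limma adjusted p = 0.0340). Both passed with smaller pseudocounts, Grhl1 at 1.03 and Ehf at 2.43 with 0.1, and Grhl1 at 2.04 and Ehf at 5.59 with 0.01.

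**Figure D3:**
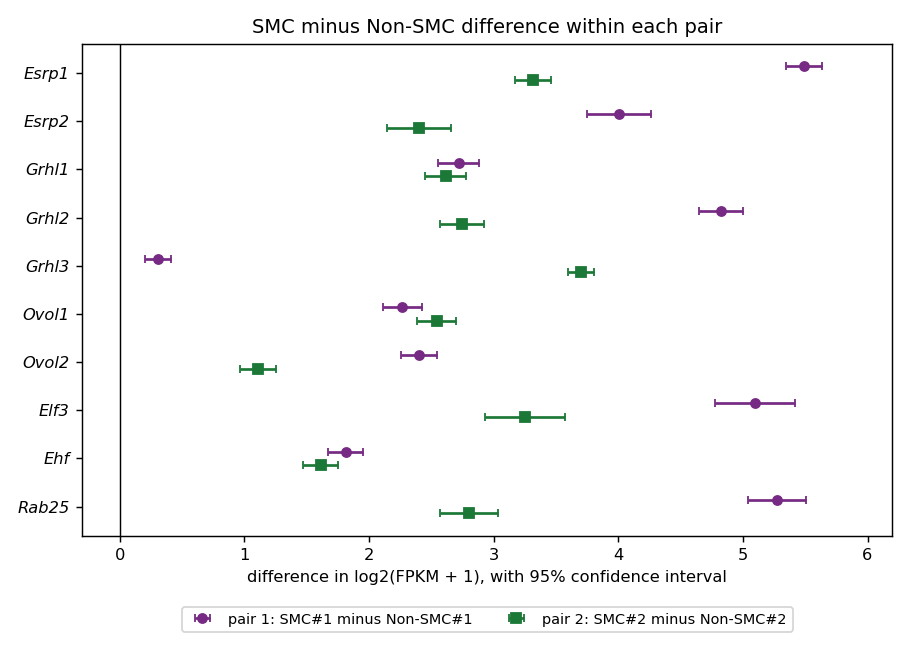
Difference between SMC and Non-SMC in log2(FPKM + 1) for each gene within pair 1 (circles) and pair 2 (squares), with 95% confidence intervals from limma. All 20 intervals lie above 0, and those of Grhl3 are at 0.31 in pair 1 and 3.70 in pair 2.

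The Non-SMC lines differed from each other in the same genes. Non-SMC#1 was lower than Non-SMC#2 in 9 of 10 genes (31.5% of rows were called lower), by 0.24 to 3.47 on the log2 scale, and 5 of the 9 reached 2-fold on that scale (7.02% of rows). Those 5 were Rab25 (-3.47), Esrp1 (-2.67), Esrp2 (-1.69), Elf3 (-1.58) and Grhl2 (-1.42). The pseudocount sets this count, since with 0.01 Ehf (-6.56), Ovol2 (-4.81), Grhl1 (-2.20) and Ovol1 (-1.86) passed 2-fold as well. Grhl3 at -0.05 did not pass the limma test (adjusted p = 0.395), with every Non-SMC library at or under 0.0700 FPKM. Smaller pseudocounts brought Grhl3 past the test, at -0.41 with 0.1 (limma adjusted p = 0.0454) and at -1.75 with 0.01 (0.0195). The value with 0.01 was past 2-fold. Grhl1 and Ovol1, both at -0.24 and under 1 FPKM in these lines, lost the call under quantile normalization. Grhl1 also lost it without replicate 3 of Non-SMC#1 (limma adjusted p = 0.0627) or replicate 1 of Non-SMC#2 (0.0624), and Ovol1 without replicate 2 of Non-SMC#1 (0.0503).

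As a share of the SMC#2 mean, Non-SMC#2 held 23.9% for Ovol2, 19.0% for Ehf, 14.7% for Esrp2 and 13.3% for Rab25. The share was 9.93% for Grhl2, 8.61% for Esrp1 and 8.49% for Elf3. It was 4.06% for Ovol1, 3.56% for Grhl1 and 0.289% for Grhl3. Chga, the chromogranin A gene and a neuroendocrine marker, had 227 ± 12.5 FPKM in SMC#2 (SD, n = 3) and was listed at 0 in all 3 Non-SMC#2 libraries. Other neuroendocrine markers were not all at 0 there, with Insm1 at 279.8 ± 23.1 FPKM in SMC#2 and 0.672 to 1.15 FPKM in Non-SMC#2, Syp at 30.4 ± 1.43 FPKM in SMC#2 and 0.216 to 0.351 FPKM in Non-SMC#2, and Ncam1 at 32.1 to 35.8 FPKM in SMC#2 and 41.0 to 49.0 FPKM in Non-SMC#2. An order with Non-SMC#1 under Non-SMC#2 and both under the SMC lines, without overlap, was found for 9 of the 10 genes and for 9.34% of all rows, a count made after the values were seen.

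Between the SMC lines the genes did not move as a block. Relative to SMC#2, SMC#1 had higher Grhl2 (0.66) and Ovol2 (0.68) and lower Esrp1 (-0.49), Ovol1 (-0.51), Ehf (-0.75), Rab25 (-0.996) and Grhl3 (-3.44). limma thus called 2 genes higher, where 36.2% of rows were higher, and 5 lower, where 20.6% were lower. With a pseudocount of 0.01, 4 of these 7 calls were left, without Grhl2 (limma adjusted p = 0.0504), Ovol1 (0.151) and Ovol2 (0.249). Esrp2 at -0.09 (95% confidence interval -0.35 to 0.17), Grhl1 at -0.13 (-0.30 to 0.03) and Elf3 at 0.27 (-0.05 to 0.59) did not pass. Grhl1 did without replicate 3 of SMC#2 (-0.22, limma adjusted p = 0.0147) and Elf3 without replicate 3 of Non-SMC#2 (0.27, limma adjusted p = 0.0312). Grhl1 also passed under an alternative that kept all libraries, with a limma adjusted p as low as 0.0126.

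Grhl3 differed most between the SMC lines and was the only one of the 10 called at 2-fold or more on the log2(FPKM + 1) scale (4.45% of rows were that much lower in SMC#1), although Rab25 in SMC#1 was at 49.9% of its SMC#2 mean in FPKM. The rows around it on mm9 chromosome 4 were therefore examined, a step chosen after its values were seen. Of 31 other rows tested within 1 megabase, 8 were also lower in SMC#1 than in SMC#2 by 2 or more on the log2 scale, while 1.15% of all rows tested were. The gene next to it, Stpg1, had 0.140 ± 0.0658 FPKM in SMC#1 and 46.0 ± 3.47 FPKM in SMC#2 (difference -5.37, limma adjusted p = 6.05e-15). The others were E2f2, a cell cycle transcription factor gene (19.1 ± 1.03 FPKM in SMC#1 and 617 ± 30.6 FPKM in SMC#2), Id3, a helix-loop-helix inhibitor gene (69.9 ± 5.34 and 505 ± 23.8 FPKM), Zfp46 (6.95 ± 0.568 and 156 ± 6.03 FPKM), Asap3, Myom3, Runx3 and the ribosomal protein gene Rpl11.

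Rpl11, Id3, E2f2, Asap3 and Zfp46 lay in 1 run, with Tcea3 (-1.25) the only other tested row in it. Stpg1 lay directly beside Grhl3, while Myom3 and Runx3 lay among rows nearer to 0. The median difference of the 31 rows was -0.11, with Nipal3, on the far side of Stpg1, at -0.12 (limma adjusted p = 0.219) and Ifnlr1, the nearest tested row on the other side of Grhl3, at -0.56. Rpl11 had 3.79 ± 0.951 FPKM in SMC#1 and 78.5 ± 12.97 FPKM in SMC#2, but ribosomal protein genes have near-identical copies, so its row is uncertain. No other gene of the 10 had more than 1 row at or under -2 within the same distance.

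**Figure D4:**
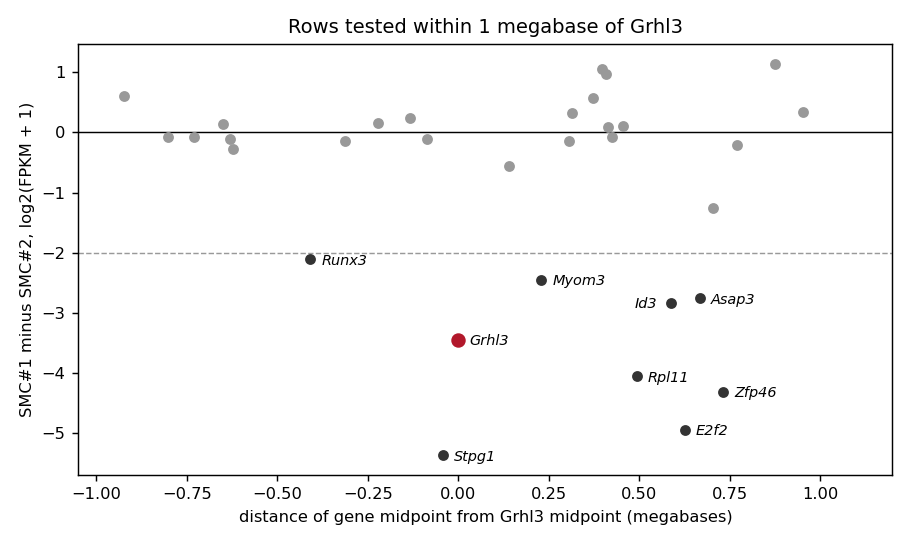
Difference between SMC#1 and SMC#2 in log2(FPKM + 1) for the rows tested within 1 megabase of Grhl3, against the distance between gene midpoints in megabases. Grhl3 (red, -3.44) and 8 named rows lie under the dashed line at -2, and the other 23 rows lie above it.

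EMT transcription factors, the counterpart of these regulators, ran the other way in 7 of 8 genes. limma called Prrx1, Twist2, Twist1, Snai1, Zeb2, Snai2 and Zeb1 as lower in SMC, by 2.87 to 5.26 on the log2 scale, and Tcf4 as higher by 0.25 (42.4% of all rows were called lower, and the median over the 8 genes was -3.06). With the line as the unit, 5 were called lower and 0 higher. Tcf4 was not called in pair 2, at 30.1 ± 1.06 FPKM in SMC#2 and 28.6 ± 3.11 FPKM in Non-SMC#2. Prrx1, Twist2, Twist1, Snai1 and Zeb2 reached 1 FPKM only in Non-SMC libraries and so had to differ. This list and those that follow were assembled with earlier results of the series known and are given as counts only. In those too, a gene that reached 1 FPKM in libraries of a single group had to differ, which the shares over all rows do not allow for.

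The SMC lines were not alike in these repressors. Zeb1, the E-box repressor that OVOL factors restrain, had 4.43, 5.04 and 4.62 FPKM in SMC#1, against 17.6, 16.9 and 18.7 FPKM in Non-SMC#1. It had 0.245, 0.165 and 0.162 FPKM in SMC#2, against 16.8, 20.0 and 18.1 FPKM in Non-SMC#2. The Non-SMC lines overlapped, and SMC#1 exceeded SMC#2 by 2.26 (limma adjusted p = 4.24e-11). Snai2 was also higher in SMC#1, at 6.51 ± 0.200 FPKM against 1.29 ± 0.0356 FPKM in SMC#2 (1.72, limma adjusted p = 3.48e-11), while its Non-SMC levels were 44.8 ± 0.651 FPKM in Non-SMC#1 and 22.1 ± 1.01 FPKM in Non-SMC#2.

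Prrx1, a homeobox gene of mesenchyme, was the factor that set the Non-SMC lines furthest apart. It was at 0 to 0.0161 FPKM in SMC libraries, against 240.1, 233 and 239 FPKM in Non-SMC#1 and 5.23, 5.47 and 4.91 FPKM in Non-SMC#2. The difference between the Non-SMC lines was 5.26 (limma adjusted p = 1.22e-15). Snai1 ran opposite, at 4.86 ± 0.601 FPKM in Non-SMC#1 and 22.1 ± 5.81 FPKM in Non-SMC#2. Twist1 was at 0 to 0.0987 FPKM in SMC, against 25.2 to 38.3 FPKM in Non-SMC, and Twist2 at 0 to 0.106 FPKM in SMC, against 23.4 to 48.1 FPKM in Non-SMC. Zeb2 was at 0.180 to 0.377 FPKM in SMC, against 8.61 to 11.1 FPKM in Non-SMC.

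**Figure D5:**
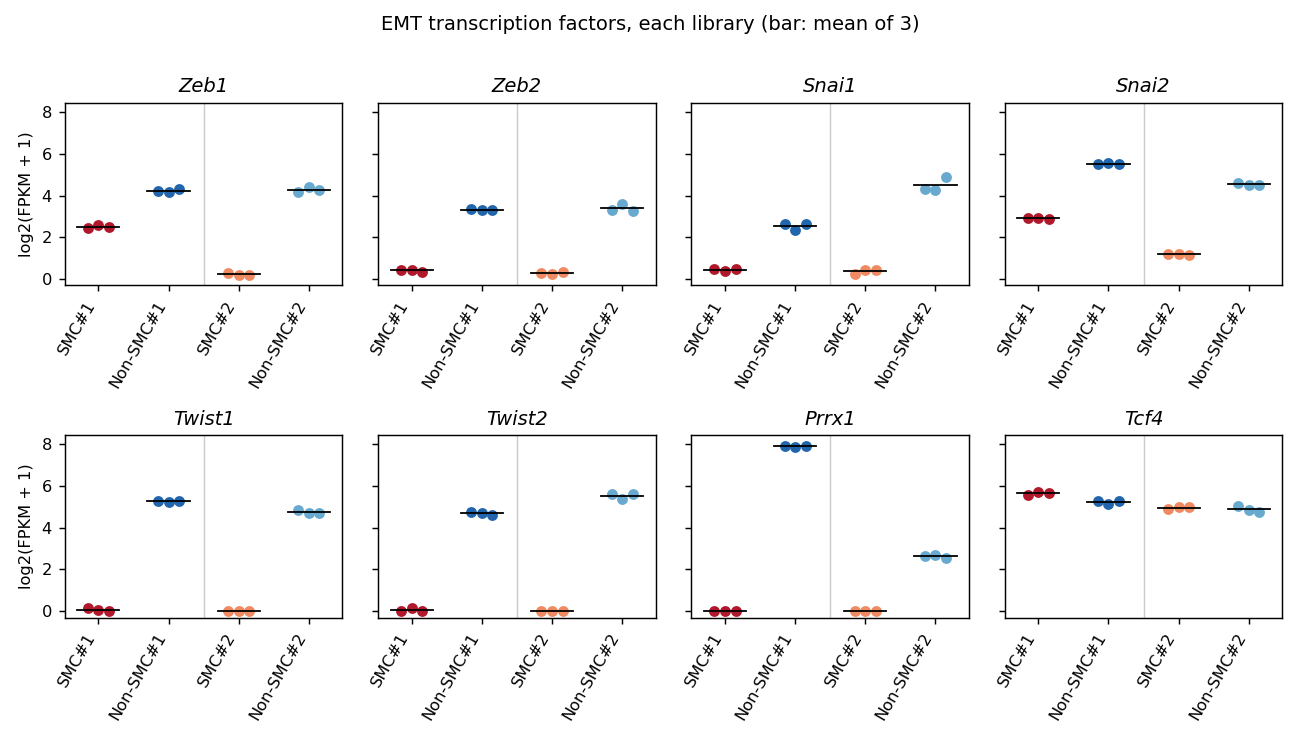
Level of 8 EMT transcription factor genes as log2(FPKM + 1), with 1 point per library and a bar for the mean of the 3 libraries of a line. In 7 panels the Non-SMC lines lie above the SMC lines, Zeb1 and Snai2 are higher in SMC#1 than in SMC#2, and Prrx1 separates the Non-SMC lines.

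Relatives of the 10 genes did not follow them as a family. Of 14 relatives 10 were tested, and limma called 7 as higher and 3 as lower in SMC, or 1 and 1 with the line as the unit. Among all rows the shares were 44.7% higher and 42.4% lower. Rab11fip4, a RAB11 effector gene, had 23.2 ± 1.46 FPKM in SMC#1 and 8.96 ± 0.467 FPKM in SMC#2, against 0.0108 to 0.134 FPKM in Non-SMC (3.87). Rab17, an epithelial trafficking GTPase gene, had 2.27 to 4.39 FPKM in SMC and 0 to 0.0716 FPKM in Non-SMC (1.94). Another effector gene, Rab11fip5, went the other way, at 0.0148 to 0.232 FPKM in SMC and 19.1 to 26.6 FPKM in Non-SMC (-4.41), as did Rab11fip2 (-0.58) and Rab11b (-0.31).

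The remaining relatives differed by less. Rab11fip1 was called at 0.41, but its pairs went opposite ways, with 1.58 in pair 1 and -0.77 in pair 2 (limma adjusted p = 1.59e-06). Rab11a, the widely expressed RAB11 gene, was called at 0.20, with 0.31 in pair 1 and 0.10 in pair 2 (limma adjusted p = 0.406 in pair 2), and Rab11fip3 was higher by 0.61. Tfcp2 and Ubp1, members of the wider grainyhead superfamily with broad expression, were called at 0.34 and 0.58, and Tfcp2 did not pass in pair 2 (0.03, limma adjusted p = 0.652). Tfcp2l1, Ovol3, Elf5 and Spdef did not reach the filter, and their highest library was at 1.29, 0.126, 0.450 and 0.138 FPKM.

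Other regulators of exon choice in EMT split both ways. Of 10 tested, limma called 3 as higher and 4 as lower in SMC (1 and 2 with the line as the unit) and 3 did not pass, and quantile normalization raised the count of higher genes to 6. Over all rows, 44.7% were called higher and 42.4% lower. Mbnl1 and Qk, splicing factor genes often active in mesenchymal cells, were lower in SMC. Mbnl1 was at 14.3 to 18.7 FPKM in SMC against 73.9 to 107 FPKM in Non-SMC (-2.48), and Qk at 10.9 to 13.7 FPKM against 54.4 to 64.7 FPKM (-2.18). Rbm24, a splicing factor gene of muscle, was higher, at 8.15 to 22.2 FPKM in SMC against 0 to 0.0107 FPKM in Non-SMC. Srsf1 was higher by 0.64. Rbm47, an epithelial RNA-binding protein gene, did not move with the Esrp genes, at 0.0121 to 0.193 FPKM in SMC, 0.385 ± 0.0337 FPKM in Non-SMC#1 and 9.01 ± 1.65 FPKM in Non-SMC#2.

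Genes with exons known to be set by ESRP were measured as whole genes, so no exon choice can be read here. Of 12 tested, limma called 3 as higher and 5 as lower in SMC (0 and 3 with the line as the unit) and 4 did not pass. For all rows the shares were 44.7% higher and 42.4% lower. Cd44, whose protein was part of the sort, had 0.0760 to 0.229 FPKM in SMC and 76.0 to 88.5 FPKM in Non-SMC (-6.15). Fgfr2 had 1.71 ± 0.204 and 6.95 ± 0.127 FPKM in SMC#1 and SMC#2, against 0.881 ± 0.0756 and 0.964 ± 0.162 FPKM in Non-SMC#1 and Non-SMC#2 (1.27). Itga6, a laminin receptor gene, was called higher (1.76), with 17.4 to 20.8 FPKM in SMC, against 0.520 ± 0.0750 FPKM in Non-SMC#1 and 22.3 ± 1.88 FPKM in Non-SMC#2, so that Non-SMC#1 alone was low.

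Reported grainyhead targets were mostly higher in SMC, with 8 of 9 called higher, against 44.7% of all rows, and 1 lower (median 3.23). With the line as the unit 3 were called higher and 0 lower. Epcam, the epithelial adhesion molecule gene, had 198 ± 7.41 and 273 ± 18.1 FPKM in SMC#1 and SMC#2, against 0 to 0.0176 FPKM in Non-SMC#1 and 45.5 ± 7.29 FPKM in Non-SMC#2. Prom2, a gene of membrane protrusions, was at 6.73 to 26.5 FPKM in SMC and 0 to 0.0713 FPKM in Non-SMC. Cldn4, a claudin gene of tight junctions, was the exception, at 0.0363 to 0.717 FPKM in SMC, 56.1 ± 2.91 FPKM in Non-SMC#2 and 0 to 0.0206 FPKM in Non-SMC#1, and was called lower in SMC (-2.55).

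Of 30 epithelial junction and surface genes, limma called 25 as higher, against 44.7% of all rows, and 4 as lower in SMC (median 2.87). With the line as the unit it called 10 as higher and 0 as lower. It called 29 of 30 as lower in Non-SMC#1 than in Non-SMC#2 (31.5% of rows were called lower). In pair 2, 20 of them were called higher in SMC#2, against 39.2% of rows. Another 8 were called lower in SMC#2, where 42.8% of rows were called lower and none of the 10 regulators was. The keratin gene Krt8 had 146 ± 12.4 FPKM in SMC#1 and 170 ± 24.4 FPKM in SMC#2, against 0.385 ± 0.138 FPKM in Non-SMC#1 and 135 ± 7.54 FPKM in Non-SMC#2. Its partner Krt18 was lower in SMC#2, at 179 ± 20.4 FPKM, against 301 ± 22.4 FPKM in Non-SMC#2 (-0.75). Pair 1 went the other way for Krt18, with 103 ± 10.0 FPKM in SMC#1 against 0.426 ± 0.119 FPKM in Non-SMC#1. Spint2, a protease inhibitor gene, followed the regulators more closely, at 160 ± 6.24 and 201 ± 9.89 FPKM in SMC#1 and SMC#2, against 0.0447 ± 0.0182 and 38.4 ± 4.52 FPKM in Non-SMC#1 and Non-SMC#2.

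Other transcription factor genes of epithelium were divided, with 5 of 10 called higher and 5 lower in SMC (4 and 2 with the line as the unit). The shares over all rows were 44.7% higher and 42.4% lower. Foxa2, a foregut endoderm factor gene, had 101 ± 7.87 and 118 ± 4.94 FPKM in SMC#1 and SMC#2, against 0.150 ± 0.0221 and 4.56 ± 0.141 FPKM in Non-SMC#1 and Non-SMC#2 (5.44). Sox9 was lower, at 0 to 0.0345 FPKM in SMC against 13.5 to 32.4 FPKM in Non-SMC (-4.48), as was Tfap2a (-2.69). Of 13 mesenchymal genes, 12 were called lower in SMC (median -6.91), against 42.4% of all rows, and 9 with the line as the unit. Among the 12 were the intermediate filament gene Vim (0 to 0.0639 FPKM in SMC against 1257 to 2313 FPKM in Non-SMC) and Sparc, a matrix protein gene (0 to 0.312 against 461 to 549.5 FPKM). Thy1 was called higher, though not with the line as the unit, at 0.928 to 2.42 FPKM in SMC and 0 to 0.0245 FPKM in Non-SMC. Vim and Sparc reached 1 FPKM only in Non-SMC libraries and Thy1 only in SMC libraries, so their calls were fixed by the filter.

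Rows most like each gene were found by the root mean square difference of centred log2(FPKM + 1) over the 12 libraries, which share their 4 lines. Esrp1 and Rab25 shared their nearest row, Mal2, a gene of apical membrane transport, at 0.27 from each. Mal2 had 36.1 and 51.3 FPKM in SMC#1 and SMC#2, against 0.00836 and 6.88 FPKM in Non-SMC#1 and Non-SMC#2 (line means). Next came Ap1m2, the epithelial adaptor subunit gene (0.29), and Flywch2 (0.33) for Esrp1, and Lsr, a tricellular junction gene (0.33), and Mapk13 (0.36) for Rab25. Elf3 lay nearest to Tmc4 (0.16), Tmem184a (0.16) and Grb7 (0.18), and Grhl2 to Thsd4 (0.17), Tmc4 (0.21) and Camsap3 (0.22).

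Esrp2 lay nearest to Sema4d (0.12), Trp53i11 (0.13) and Samd10 (0.15). Grhl1 lay nearest to Fam81a (0.10), Fgf12 (0.12) and Celf6 (0.13), and Ovol1 to Ldoc1l (0.12), Stox1 (0.12) and Ubxn10 (0.13). Ovol2 lay nearest to Pls1 (0.14), Sh2d3c (0.14) and St8sia4 (0.14), and Ehf to Pold3 (0.13), 2610035D17Rik (0.16) and Rnf157 (0.16). Grhl3 lay nearest to Hpcal4 (0.11), Xlr3a (0.13) and Itga4 (0.13), genes that were likewise high in SMC#2 only, with Xlr3a listed at 0 in the means of the other 3 lines. None of the 10 was among the 3 nearest rows of another.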

How the data were processed

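RNA-seq libraries of 4 mouse SCLC lines were analyzed, 3 per line. The data statement of the study names other libraries of SMC for this deposit, and groups follow the labels of the libraries, which give SMC and Non-SMC. Total RNA was sequenced on a NovaSeq6000 instrument. The submitters' processing notes name STAR 2.6.1b, DESeq2 and mm10. The deposited values are FPKM, 1 per gene row and library, by a tool not given in the sources used here. Because FPKM are relative to the library, abundant transcripts lower other genes. Strand use is not stated, and reads of antisense or overlapping genes may be mixed. Positions in the table are those of the older build mm9, although the notes name mm10: of 22693 rows on the annotated chromosome, 2531 overlapped their GRCm38 position and 10566 had the same length. First bases are counted from 1.

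Of 80 ribosomal protein rows, 4 were at 0 in every library and 5 in some, so a 0 is described as listed at 0 and not used as the base of a fold.

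The 13122 rows that reached 1 FPKM in 3 or more libraries were transformed to log2(FPKM + 1), which understates the change of low genes, and a mean per line was fitted to all 12 libraries with limma 3.58.1 (trend and robust) in R 4.3.3. SMC against Non-SMC is the mean of the within-pair differences. Tests were two-sided. FPKM are not counts, so the count test of the study was not run. The fit was tested on simulated data. Alternatives changed the pseudocount, filter, scaling, eBayes options, block, libraries and unit of replication.

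The members and lists were chosen with earlier results of these data known. Every member, EMT factor and relative was named. From each other list up to 2 genes per direction with the largest called difference were named, and the 3 rows nearest to each member. Some genes that this rule names are not reported here. Rbm47, Krt8, Krt18 and the rows around Grhl3 were chosen after their values were seen, as were the marker genes beside them.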

Additional observations from a re-analysis of the deposited data

Results flagged for a closer look

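Among the 6 SMC libraries, Esrp2 had a low library, replicate 2 of SMC#1 at 14.8 FPKM, with the others at 17.6 to 19.2 FPKM. Its gap to the nearest library was 0.632 of the whole range, past the limit of Dixon's test for 6 samples, which chance passes in about 1 of 20 groups. That rate holds for a single population, whereas these libraries come from SMC#1 and SMC#2, so nothing is concluded from it.

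The difference between SMC and Non-SMC itself differed between the pairs in 8 genes, by the limma test of pair 1 minus pair 2. It was larger in pair 1 for Rab25 (2.48), Esrp1 (2.17), Grhl2 (2.08), Elf3 (1.85), Esrp2 (1.60) and Ovol2 (1.29), and larger in pair 2 for Grhl3 (-3.39) and Ovol1 (-0.28). The Ovol1 call was lost without any 1 of 8 of the 12 libraries, and its sign turned with smaller pseudocounts. With 0.01 Ovol1 was called the other way, as larger in pair 1 (1.25, limma adjusted p = 0.0436).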

How the results depend on the processing

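Over the alternatives, 1202 values of a single gene kept direction and call, 19 lost the call, 12 gained it and 5 changed sign. The differences within pair 1 and within pair 2 kept direction and call under every alternative that was run. For pair 1 minus pair 2, Grhl1 changed sign under quantile normalization (-0.12) and median-ratio scaling (-0.017), and Ovol1 with a pseudocount of 0.1 (0.49) or 0.01 (1.25). For SMC#1 against SMC#2, leaving out a library put Esrp2 at -0.15 to 0.014, with the sign changed without replicate 2 of SMC#1, and a pseudocount of 0.01 left 4 genes called in place of 7. The cause was not tested. Leaving out a library gave 7 to 8 calls for SMC#1 against SMC#2, 8 to 9 for Non-SMC#1 against Non-SMC#2, 7 to 9 for pair 1 minus pair 2 and 10 elsewhere. A filter of 5 FPKM left 8 of the 10 genes to test. A pseudocount of 0.01 brought Esrp1 to 7.82 in place of 4.40, so the sizes here depend on the pseudocount wherever a line is near 0. With the line as the unit, 2441 rows were called in place of 11430, 10 junction and surface genes were higher in place of 25, and 3 grainyhead targets in place of 8.

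Same-numbered libraries of different lines did not deviate together (correlations -0.38 to 0.35, against -0.42 to 0.35 for different numbers), so the numbers were not taken as pairing. With the replicate number as a block, the members called were 10 (SMC against Non-SMC), 10 (pair 1), 10 (pair 2), 8 (pair 1 minus pair 2), 7 (SMC#1 against SMC#2) and 9 (Non-SMC#1 against Non-SMC#2), as without it. Protein identity within the families was not run here. Depth is known only in relative terms, so no floor can be set for values listed at 0.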
